A study of Homo sapiens with 3 samples.

Results

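The interferon-high cells described here were HCT116 tumour cells from the top channels of an organ-on-chip whose messenger RNA held an unusually large share of 5 interferon-stimulated genes, IFI6, IFI27, ISG15, IFIT1 and BST2. They were selected on that share: cells with at least 5000 UMIs (unique molecular identifiers, the counted RNA molecules) and a mitochondrial share of no more than 20% were ranked within their own library, and the top 10% were taken. This gave 1719 of 17182 eligible cells in the stretched top library and 1487 of 14870 in the not stretched top library, 3206 of 32052 eligible cells and of 54788 barcodes listed in the whole series. The middle 50% of the same ranking, 8590 stretched and 7434 not stretched cells, served as the comparison.

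HCT116 is an established colorectal carcinoma line of epithelial origin, and all cells carried an H2B-GFP label on their chromatin. The stretched top library held the non-invaded tumour cells of chips under 6 days of peristaltic stretch, the not stretched top library held the non-invaded cells of chips without peristalsis, and a bottom library held the cells that had invaded the lower channel under stretch. Cells were detached with trypsin from both channels, enriched by sorting on GFP and loaded for 3′ droplet sequencing, aiming at about 10000 droplets per sample. How many chips stand behind a library is not given in the sources used here. With 1 library a condition, and cells chosen by the readout, no test was possible and no p-value is given. Folds between interferon-high and middle cells are a description of the choice, and 95% intervals cover counting error only.

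Interferons are secreted cytokines of the antiviral response. Type I interferons (alpha and beta) bind IFNAR1 and IFNAR2, and type III interferons (lambda) bind IFNLR1, found mainly on epithelia such as that of the gut, together with IL10RB. Both receptors act through JAK1 and TYK2 on STAT proteins, which join IRF9 to form a complex that binds the interferon-stimulated response element in the promoters of interferon-stimulated genes. The products of these genes block viral entry, translation and replication, tag proteins with the ubiquitin-like ISG15, and raise antigen presentation by MHC class I.

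The promoters of the 5 genes that defined the cells are shown because they carry the element through which these genes are known to respond. A core of this element was searched as GAAANNGAAA on both strands, overlaps allowed. The window ran from 250 bases before to 50 bases after each listed gene start (RefSeq, GRCh38.p14). A gene with several listed starts counted as holding the core if any of its windows did. All 5 genes that defined the cells held the core. IFI27, and IFIT3 further below, had 2 listed starts each, and only the window with the lowest coordinate is shown. Below, capitals mark the cores, which read TTTCNNTTTC where they lie on the opposite strand, and every stretch is written in the direction of its gene.

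IFI6 (chr1:27672251-27672373, minus strand): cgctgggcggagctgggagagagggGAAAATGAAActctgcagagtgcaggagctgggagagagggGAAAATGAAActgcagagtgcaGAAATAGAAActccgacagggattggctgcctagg
IFI27 (chr14:94110603-94110675, plus strand): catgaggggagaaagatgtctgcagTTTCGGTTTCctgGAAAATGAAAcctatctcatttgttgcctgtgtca
ISG15 (chr1:1013359-1013424, plus strand): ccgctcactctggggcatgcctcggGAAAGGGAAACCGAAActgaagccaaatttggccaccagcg
IFIT1 (chr10:89392482-89392554, plus strand): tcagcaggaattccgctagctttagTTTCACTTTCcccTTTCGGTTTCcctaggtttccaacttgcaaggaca
BST2 (chr19:17405720-17405785, minus strand): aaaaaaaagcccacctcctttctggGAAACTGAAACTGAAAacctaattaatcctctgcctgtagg

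IFI6 held 3 cores, of which the farthest began 156 bases before the start and the nearest 93 bases before it. The other rule genes held 2 each, and in ISG15 and BST2 these overlapped, as the unbroken run of capitals shows. Of the matched genes outside the rule that were higher in both top libraries and held the core, IFIT3 had the largest mean ratio and B2M the highest level, and both are shown for that reason. IFNL1 is shown as the lambda interferon seen in most cells.

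IFIT3 (chr10:89327816-89327909, plus strand): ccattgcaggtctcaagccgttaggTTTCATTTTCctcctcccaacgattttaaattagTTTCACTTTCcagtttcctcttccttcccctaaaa
B2M (chr15:44711348-44711413, plus strand): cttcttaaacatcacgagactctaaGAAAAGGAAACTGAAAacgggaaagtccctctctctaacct
IFNL1 (chr19:39296168-39296233, plus strand): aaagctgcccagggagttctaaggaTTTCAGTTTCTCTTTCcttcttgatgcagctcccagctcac

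Among all 27305 genes with a promoter in the table, 4.38% held the core, and among the 8471 matched genes measured in both top libraries 3.75% did. Counted by window, 3.57% of 35116 held it. Of the 52 genes at least 1.5-fold higher in interferon-high than in middle cells of both top libraries, 0.507% of the 10249 measured, 42 were matched and 22 of them held it, which is 52.4% (36.4 to 68.0%). These 22 include the 5 rule genes, and the 52 genes were chosen on the values reported here, so the share is a description. Without the rule genes it was 17 of 37, 45.9% (29.5 to 63.1%), and of the 29 genes lower in both libraries 21 were matched and 3 held it, 14.3% (3.05 to 36.3%). A match is a run of letters, not a shown binding site. PSMB9, OAS1, IFI35, UBE2L6 and HLA-B were matched and had no core in this window.

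The libraries differed in depth and shared some barcodes. Interferon-high cells had a median of 9158 UMIs, against 10749 in middle cells of the stretched top library, and 11462 against 12420 in the not stretched top library. Their median mitochondrial share was 11.2% against 10.4% and 9.87% against 9.98%. Summed over cells, the interferon-high cells held 17596679 UMIs in the stretched and 19420731 in the not stretched library, so that 3 counts correspond to 0.170 and 0.154 CPM (UMIs per 1000000 UMIs). The top libraries had 216 barcodes in common, of which 64 were eligible in both, and the bottom library shared 61 with the stretched and 99 with the not stretched top library. Of the 64 barcodes, 5 were interferon-high in the stretched and 13 in the not stretched library. Without all cells of shared barcodes the number of genes 1.5-fold higher in both libraries was 50, against 52 with them.

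The share of UMIs from the 5 rule genes was a continuous distribution with a long upper tail, not a separate group of cells. Its median was 0.989% in interferon-high and 0.354% in middle cells of the stretched top library, and 1.21% and 0.514% in the not stretched top library. The threshold lay at 0.811% and 1.02%. The 10 stretched cells just inside it had a median of 0.811% and the 10 just outside 0.810%. These cells are neighbours in the ranking itself, so the values show only that no gap in the share lay at the line. The highest single cells reached 4.88% in the stretched and 3.96% in the not stretched library. The 90th percentile was 2.29 times the median in the stretched and 1.98 times the median in the not stretched library.

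**Figure D1:**
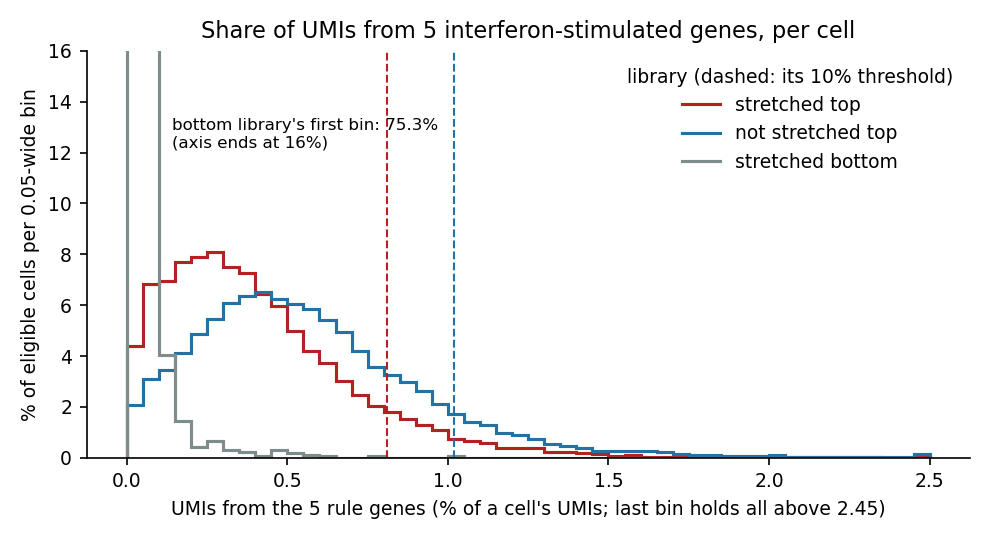
Share of each eligible cell's UMIs from the 5 rule genes (x, percent) against the percent of cells per bin (y), for the stretched top, not stretched top and stretched bottom libraries. The dashed thresholds at 0.811% and 1.02% cut smooth tails, and 75.3% of the bottom library's cells fall in the first bin.

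Measured against 1 common line, fewer stretched than not stretched cells were interferon-high. Above the threshold of the not stretched library lay 771 of 17182 stretched cells, 4.49% (4.18 to 4.81%), against 1487 of 14870 not stretched cells, 10.0% by construction (9.52 to 10.5%). In the bottom library it was 1 of 1637 cells, 0.0611%. After every cell was thinned to 5000 UMIs the shares were 4.94% of stretched, 10.8% of not stretched and 0 of 1637 bottom cells, which allows a share of up to 0.225%. With the stretched library's own threshold as the line, 10.0% of stretched and 21% of not stretched cells lay above it. The direction was the same for all 3 settings, but stretch, chip and library preparation cannot be told apart with 1 library of each.

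ISG15, the ubiquitin-like modifier, supplied most of what chose the cells. It stood at 5809 CPM in interferon-high and 2049 CPM in middle cells of the stretched top library, and at 7061 and 2891 CPM in the not stretched top library. It made up 53.5% and 54.1% of the rule genes' UMIs in the interferon-high cells of these libraries and was the leading rule gene in 84.8% and 89.4% of them. Middle cells were much alike in this, with 57.0% and 55.6% of the rule genes' UMIs from ISG15, which led in 82.8% and 84.8% of them. IFI6, a mitochondrial and endoplasmic reticulum protein with antiviral activity, had 2576 against 980 CPM under stretch and 2891 against 1344 CPM without it. IFI27, its paralogue, had 1980 against 430 CPM and 2281 against 689 CPM. Of the 3 abundant rule genes, IFI27 had the largest fold between interferon-high and middle cells, 4.60 (4.54 to 4.67) in the stretched and 3.31 (3.27 to 3.35) in the not stretched library.

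The other rule genes were scarcer. BST2, the membrane tether that holds budding virus on the cell surface, had 232 against 57.1 CPM under stretch and 480 against 146 CPM without it. IFIT1, which binds viral RNA caps, had 267 against 80.8 CPM and 333 against 132 CPM. At 5000 UMIs per cell BST2 was seen in 49.0% of interferon-high and 19.2% of middle cells of the stretched library, and in 68.5% and 39.6% in the not stretched library. IFIT1 was seen in 64.9% and 30.3%, and in 73.6% and 42.6%. Thus an interferon-high cell was one with many ISG15, IFI6 and IFI27 molecules, and many such cells showed no BST2 or IFIT1 at that depth. In the 1637 bottom cells the levels were 393 CPM for ISG15, 50.2 for IFI6, 18 for IFI27, 4.62 for IFIT1 and 4.05 for BST2.

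Each rule gene was also measured in cells chosen by the other 4. BST2 was then 3.56-fold higher in interferon-high than in middle cells of the stretched library and 2.73-fold in the not stretched library, and IFIT1 3.10-fold and 2.38-fold. IFI27 was 3.27-fold and 2.5-fold higher, IFI6 2.32-fold and 1.92-fold, and ISG15 2.02-fold and 1.68-fold. All 5 stayed above 1.5-fold when they did not take part in the choice. The 5 genes were put together with earlier results of these data known, so these folds are a description and no separate support. The UMIs of each cell were also divided at random into parts of equal size, with cells ranked on 1 part and read out on the other. The ratio of the median shares, interferon-high over middle, was 2.88 in the part that ranked the stretched cells and 2.75 in the other part, and 2.39 and 2.35 for the not stretched cells. Of the cells that were interferon-high in 1 part, 72.9% of stretched and 74.7% of not stretched cells were so in the other. The division used the same cells and the same 5 genes, so it bears only on counting error.

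Across cells thinned to 5000 UMIs, IFI6 and ISG15 went together most closely, with a Spearman rho of 0.56 over 17182 stretched and 0.50 over 14870 not stretched cells, and IFIT1 and BST2 least, with 0.10 and 0.14. All these cells share a library and a depth, IFIT1 and BST2 are sparse, and no p is given. Outside the rule, the genes whose counts followed the summed rule genes most closely were B2M, with a mean rho of 0.52 over the top libraries, IFITM3 with 0.47, LGALS3BP with 0.33 and HLA-C and HLA-B with 0.32 each. PSMB9 followed with 0.28, and ADIRF, IFI35 and HES4 with 0.24 to 0.25. B2M is the light chain of MHC class I, IFITM3 blocks fusion of viral envelopes, and LGALS3BP is a secreted glycoprotein that binds galectins.

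Across the transcriptome, few genes separated interferon-high from middle cells. A gene counted as measured with at least 5 CPM over all eligible cells of its library, and as higher or lower past 1.5-fold on the scale of log2(CPM + 1). In the stretched top library 88 of 10281 genes, 0.856%, were higher and 66, 0.642%, lower. In the not stretched top library 84 of 10597 genes, 0.793%, were higher and 234, 2.21%, lower. In both libraries 52 of 10249 genes were higher, 0.507%, and 29 lower, 0.283%. The rule used this contrast, so nothing is read from these shares. No gene measured in both libraries was past 1.5-fold in opposite directions. AFP, below the level filter under stretch, had -1.17 log2 there and 1.19 without stretch.

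The lower side depended on scaling. The median gene stood at -0.08 log2 in the stretched and -0.14 in the not stretched library, and trimmed-mean scaling (TMM) shifted all values up by 0.07 and 0.13. With it, 110 genes were higher and 39 lower in the stretched, and 149 higher and 58 lower in the not stretched library. In both libraries it gave 78 higher and 14 lower. With median-of-ratios scaling the numbers were 122 and 35, 173 and 52, and 84 and 14. All values below are relative to total UMIs.

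Many genes of the interferon response were higher. Over the 91 genes of the STAT and IRF, sensor, IFIT, OAS and MX, other antiviral, ISG15 conjugation and IFITM lists, rule genes left out, 32 of 63 measured genes were higher in interferon-high than in middle cells of the stretched library and 27 of 65 in the not stretched library, and 0 were lower in either. Over all genes, 0.856% and 0.793% were higher in these libraries, and 0.507% in both. These shares belong beside each list count below. The measured genes of the interferon lists had medians of 0.60 and 0.47 log2, against -0.08 and -0.14 over all genes. The lists were drawn up with earlier results of these data known.

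**Figure D2:**
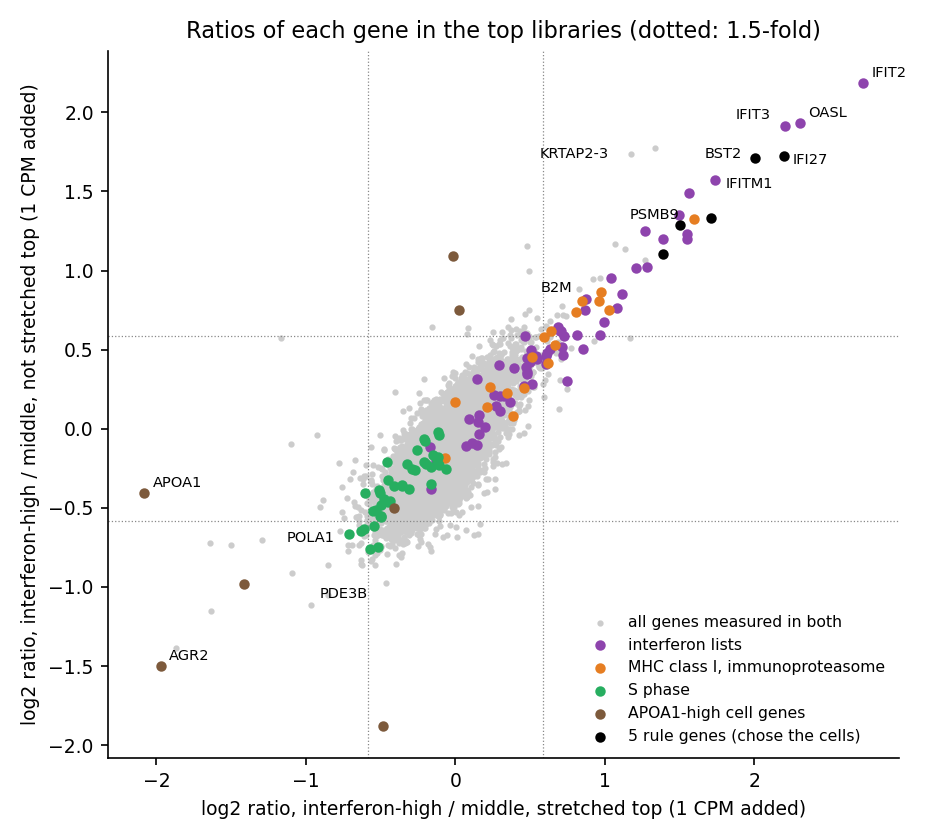
Log2 ratio, interferon-high over middle cells, in the stretched (x) and the not stretched (y) top library, 1 point per measured gene, with lists in colour and the 1.5-fold lines dotted. Interferon and MHC class I genes lie towards the upper right, S phase genes towards the lower left, and IFIT2 is the farthest, at 2.73 and 2.19.

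Messages of IFNB1 and the lambda interferons were found in very few cells, and 21 of the 43 such cells of the stretched and 21 of the 36 of the not stretched library were interferon-high. These genes are below the level filter and were looked at after their values were seen. IFNL1, a type III interferon, was seen in 17 of 1719 interferon-high cells of the stretched library, 0.989% (0.577 to 1.58%), with 115 UMIs, against 8 of 8590 middle cells with 22 UMIs. Without stretch it was seen in 17 of 1487 interferon-high cells, 1.14% (0.667 to 1.82%), with 144 UMIs, against 1 of 7434 middle cells with 1 UMI. IFNL3 was seen in 9 against 4 cells under stretch and in 12 against 3 cells without it, and IFNL2 in 5 against 1 and in 6 against 1. IFNL2 and IFNL3 are near-identical, so how reads were divided between them is uncertain. IFNB1, the type I interferon that epithelial cells make, was seen in 2 interferon-high and 0 middle cells under stretch, with 5 and 0 UMIs. Without stretch it was seen in 3 interferon-high cells with 18 UMIs and 1 middle cell with 1 UMI.

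Any of these 4 messages was seen in 21 of 1719 interferon-high cells of the stretched library, 1.22% (0.758 to 1.86%), against 11 of 8590 middle cells, 0.128%. Without stretch they were seen in 21 of 1487 cells, 1.41% (0.876 to 2.15%), against 5 of 7434, 0.0673%. The 4296 stretched and 3718 not stretched cells ranked lowest by the rule genes gave 0.0931% and 0.0807%, close to the middle cells. In the bottom library, at a median of 45340 UMIs per cell, 0 of 1637 cells had such a UMI, which allows a share of up to 0.225%. So a small minority of interferon-high cells held one of these messages, and most held none that could be seen at their median depth of 9158 and 11462 UMIs. The further ligands named here, IFNE, IFNA1, IFNA2, IFNG and IFNK, are below the level filter and outside the rule by which genes were named. IFNE, a type I interferon known from epithelia, was seen in more cells than these 4 together and mostly outside the interferon-high cells. It was seen in 5 of 1719 interferon-high cells of the stretched library, 0.291% (0.0945 to 0.677%), against 48 of 8590 middle cells, 0.559% (0.412 to 0.740%), and in 5 of 1487, 0.336% (0.109 to 0.783%), against 46 of 7434, 0.619% (0.453 to 0.825%), in the not stretched library. In the deeper bottom library 23 of 1637 cells had an IFNE UMI, and no cell of any library had more than 2. IFNA1, IFNA2, IFNG and IFNK had 0 UMIs in eligible cells of all 3 libraries.

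A few cells held most of the molecules. The interferon-high cells held 220 of the 287 UMIs of these 4 genes in the stretched library, 76.7%, and 251 of 279 in the not stretched library, 89.96%, while they held 8.73% and 9.40% of all UMIs. A single stretched cell held 54 of them and a single not stretched cell 134, which is 48.0% of that library's total. Without these cells the interferon-high share was 71.2% and 80.7%. With at most 10% mitochondrial UMIs as the limit, the interferon-high cells of the stretched library held 42.9% and those of the not stretched library 93.8%. The not stretched cell with 134 had 16 UMIs of IFNB1, 78 of IFNL1, 12 of IFNL2 and 28 of IFNL3, together with 17 of CCL5 and 25 of CXCL10, and 3.53% of its UMIs came from the rule genes. Of the cells with at least 3 such UMIs, 10 of 15 were interferon-high in the stretched and 12 of 14 in the not stretched library, and their median rank by the rule genes was at the 98.5th and 98.1st percentile. The lowest of them stood at the 36.0th and 86.7th percentile, so a cell could hold the message without being interferon-high.

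**Figure D3:**
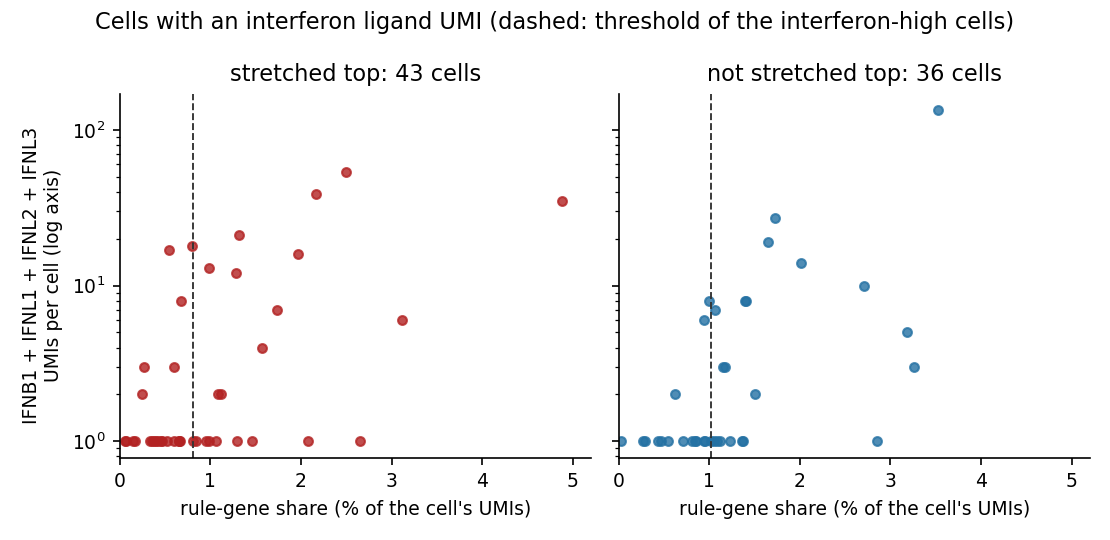
Each point is an eligible cell with at least 1 UMI of IFNB1, IFNL1, IFNL2 or IFNL3, by its rule-gene share (x, percent of UMIs) and its UMIs of these genes (y, log axis), for the 43 stretched and 36 not stretched cells. Cells with more than 10 such UMIs lie mostly right of the dashed threshold, and the not stretched cell with 134 stands alone.

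CCL5 and CXCL10, chemokines that recruit T cells, were likewise carried by a few cells, and they too were looked at after their values were seen. CCL5 had 4.72 CPM in interferon-high and 0.239 CPM in middle cells of the stretched library, and 2.73 and 0.558 CPM in the not stretched library. CXCL10 had 0.455 and 0.00955 CPM under stretch, the lower from 1 UMI, and 1.85 and 0.0472 CPM without it. In the not stretched cells neither stayed above the middle cells once cells with an interferon message were left out, at -0.19 log2 for CCL5 and -0.07 for CXCL10. Before that step they had 53 UMIs in 10 and 36 UMIs in 4 interferon-high cells. The counts left are near the floor, so nothing is read from the sign. In the stretched cells CCL5 did not change sign. CXCL8, which attracts neutrophils, was also looked at after its values were seen. It had 20.7 against 3.32 CPM in interferon-high and middle cells under stretch, but 1 interferon-high cell held 218 of its 364 UMIs there. Without stretch it had 3.96 and 2.33 CPM.

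No measured receptor chain or JAK kinase of the pathway was past 1.5-fold between interferon-high and middle cells. Few genes of any kind were. Over all genes, 0.856% were higher and 0.642% lower in the stretched library, and 0.793% and 2.21% in the not stretched library. The 5 measured receptor chains had medians of -0.02 log2 in both libraries. IFNAR1 had 18.9 against 19.2 CPM under stretch and 21.7 against 21.9 CPM without it. IFNLR1, the chain particular to type III interferons, had 9.09 against 9.12 CPM and 11.8 against 11.7 CPM, with folds of 0.997 (0.838 to 1.18) and 1.01 (0.877 to 1.17). JAK1 had 53.7 against 54.3 CPM and 58.3 against 59.2 CPM. JAK2 had 15.2 against 13.2 CPM under stretch, 1.15-fold (1.00095 to 1.31), and 14.0 against 15.3 CPM without it, 0.915-fold (0.802 to 1.04), and TYK2 had 11 against 11.1 and 12.4 against 14.1 CPM. IL10RB, the other chain of the type III receptor, was below the filter at 2.33 against 2.82 CPM and 3.40 against 2.88 CPM. The interferon signalling inhibitors, among them SOCS1, had 0 of 10 genes past 1.5-fold in either direction, near the shares over all genes. SOCS1 had 18 against 13.4 CPM under stretch and 23.6 against 20.1 CPM without it.

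Of the transcription factors, IRF7 stood out. This amplifier of interferon gene expression had 97.8 against 47.0 CPM in interferon-high and middle cells of the stretched library and 122 against 62.2 CPM in the not stretched library, folds of 2.08 (1.97 to 2.20) and 1.95 (1.86 to 2.05). It was the 1 of 9 measured STAT and IRF genes past 1.5-fold in both libraries. STAT2 had 37.0 against 25.6 and 42.5 against 34.8 CPM. IRF9, the DNA-binding partner of STAT2, had 10.5 against 9.65 and 12.4 against 13.3 CPM, with intervals of the fold that include 1.

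Of 8 measured nucleic acid sensors and their adaptors, 2 were higher in both libraries, and both are sensors of viral RNA. IFIH1 (MDA5), which binds long double-stranded RNA, had 50.2 against 24.7 CPM in interferon-high and middle cells under stretch and 47.8 against 29.5 CPM without it. DDX58 (RIG-I), which binds RNA with a triphosphate end, had 101 against 60.8 CPM and 121 against 80.5 CPM. Their folds, 2.03 (1.88 to 2.19) and 1.62 (1.5 to 1.74) for IFIH1 and 1.66 (1.58 to 1.75) and 1.51 (1.44 to 1.58) for DDX58, were smaller than those of IFIT2 and IFIT3 below.

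IFIT2, of a family that blocks translation of viral RNA, had the largest ratio of the measured genes in both libraries. It had 38.6 CPM in interferon-high and 4.97 CPM in middle cells of the stretched library, 7.77-fold (6.92 to 8.73), and 38.8 and 7.74 CPM in the not stretched library, 5.01-fold (4.53 to 5.54). IFIT3, whose promoter is shown above, had 72.2 and 14.9 CPM under stretch, 4.86-fold (4.51 to 5.24), and 86.2 and 22.1 CPM without it, 3.9-fold (3.66 to 4.15). IFIT5 had 32.3 and 22.9 CPM, and 34.3 and 26.6 CPM, and stayed under 1.5-fold. Thus 2 of the 3 measured members outside the rule were higher in both libraries. Much of the IFIT2 in the not stretched library lay in cells that also held an interferon message: without those cells its log2 ratio was 1.39 there, against 2.19 with them, and 2.31 in the stretched library, against 2.73.

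All 3 measured members of the OAS and MX list, enzymes that trigger RNA decay and their relatives, were higher in both libraries. OASL had 79.0 against 15.2 CPM in interferon-high and middle cells under stretch, 5.21-fold (4.85 to 5.6), and 85.3 against 21.6 CPM without it, 3.94-fold (3.70 to 4.20). OAS1 had 46.7 against 15.8 and 59.1 against 22.6 CPM, and OAS3 96.5 against 54.4 and 114 against 75.7 CPM. MX1, a classical interferon-stimulated gene, was hardly expressed at all, at 1.59 against 1.36 CPM and 2.94 against 2.05 CPM, and was below the filter.

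Of 4 measured enzymes that attach or remove ISG15, 3 were higher in both libraries. HERC5, the ligase, had 107 against 35.7 CPM in interferon-high and middle cells under stretch and 99.4 against 41.8 CPM without it. UBE2L6, the conjugating enzyme, had 78.0 against 31.5 and 88.7 against 43.1 CPM, and USP18, the protease that removes ISG15 and dampens receptor signalling, had 51.6 against 21.8 and 60.9 against 29.6 CPM. ARIH1, a general ubiquitin ligase that also acts on ISG15, had 88.2 against 99 and 92.2 against 121 CPM. It was the member that did not pass.

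Of the other antiviral effectors, 17 of 29 measured genes were higher in the stretched, 13 of 31 in the not stretched and 10 of 29 in both libraries, with medians of 0.63 and 0.50 log2. ISG20, an exonuclease, had 42.2 against 13.6 CPM in interferon-high and middle cells under stretch and 64.3 against 22.2 CPM without it. IFI44 had 36.4 against 11.8 and 48.8 against 20.7 CPM, IFI35 had 115 against 43.2 and 139 against 59.8 CPM, and PARP10, an ADP-ribosyltransferase, had 13.8 against 5.14 and 19.9 against 7.81 CPM. Of the IFITM and membrane list, 3 of 7 were higher in both libraries. These were IFITM1 with 48.5 against 13.8 and 66 against 21.5 CPM, IFITM2 with 202 against 125 and 230 against 147 CPM, and IFITM3 with 1498 against 915 and 1535 against 1000.4 CPM. The IFITM genes are close paralogues, and how their shared reads were counted is not given in the sources used here. Of the guanylate binding and interferon-gamma genes, 1 of 4 measured was higher in the stretched and 1 of 6 in the not stretched library. Their medians were 0.39 and 0.49 log2. Of the 4 measured in both libraries 0 were higher in both, near the 0.507% of all genes, and nothing is read from that count.

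**Figure D4:**
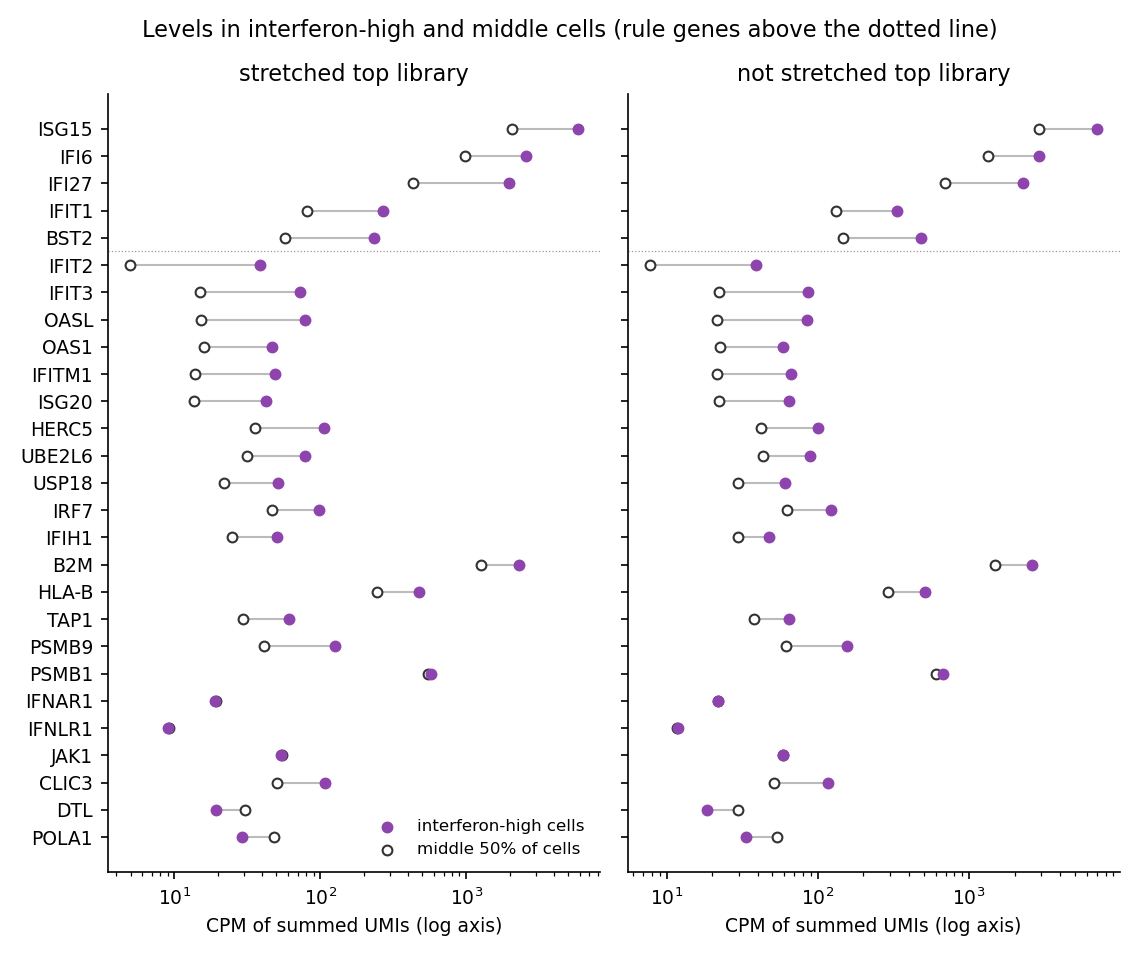
CPM (log axis) of rule genes and selected genes in interferon-high (filled) and middle (open) cells of the stretched and not stretched top libraries. The filled points lie right of the open ones for the interferon and MHC class I genes, coincide with them for IFNAR1, IFNLR1 and JAK1, and lie left of them for DTL and POLA1.

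Of 14 measured genes of MHC class I and peptide loading, 8 were higher in the stretched, 6 in the not stretched and 6 in both libraries, several of them at high levels. Over all genes these shares were 0.856%, 0.793% and 0.507%. B2M had 2296 CPM in interferon-high and 1273 CPM in middle cells of the stretched library, 1.80-fold (1.78 to 1.82), and 2605 and 1485 CPM in the not stretched library, 1.75-fold (1.74 to 1.77). HLA-B had 478 against 245 and 513 against 293 CPM and HLA-C 501 against 286 and 620 against 371 CPM. The reads of these HLA genes may have been divided between near-identical sequences. TAP1, which carries peptides into the endoplasmic reticulum, had 61.4 against 29.5 and 64.4 against 37.9 CPM. Chaperones of the loading complex did not pass: CALR had 491 against 417 and 586 against 488 CPM, TAPBP 78.3 against 61.3 and 81.9 against 69.8 CPM, and CANX 262 against 275 and 249 against 283 CPM.

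The immunoproteasome subunit PSMB9, which replaces PSMB6 in the catalytic core, had 126 against 41.0 CPM in interferon-high and middle cells under stretch, 3.07-fold (2.92 to 3.24), and 156 against 61.6 CPM without it, 2.53-fold (2.42 to 2.64). PSMB6 itself had 340 against 326 and 375 against 337 CPM. PSMB10 had 12.3 CPM in both groups under stretch and 13.6 against 12.0 CPM without it, and PSMB8 was below the filter at 1.31 against 0.688 and 2.11 against 1.22 CPM. The activator subunit PSME2 had 401 against 265 and 433 against 289 CPM. The constitutive proteasome had 0 of 14 members past 1.5-fold in either library, with medians of 0.04 and 0.11 log2. That count is near the shares over all genes given above.

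Ranked into deciles on 1 part of the UMIs and read out on the other, the interferon lists climbed from the lowest decile to the highest. In CPM they climbed most steeply at the top. IFIT2 went from 1.63 CPM in decile 1 through 12.6 CPM in decile 9 to 37.2 CPM in decile 10 of the stretched library, and from 2.23 through 13.6 to 40.2 CPM in the not stretched library. Summed MHC class I genes went from 2303 CPM in decile 1 through 4098 in decile 9 to 5066 CPM in decile 10, and from 2576 through 4892 to 5783 CPM. In CPM, IFIT2 thus gained more over the last step than over all steps before it, while the summed MHC class I genes climbed gradually along the whole range. Taken as folds, the rise from decile 1 to decile 9 was larger than the last step for IFIT2 and for the MHC class I genes. The constitutive proteasome held 4245 CPM in decile 1 and 4089 CPM in decile 10 under stretch, and 4117 and 4433 CPM without it. IFNL1 had 0 UMIs in decile 1 of both libraries and 6.24 and 6.75 CPM in decile 10.

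**Figure D5:**
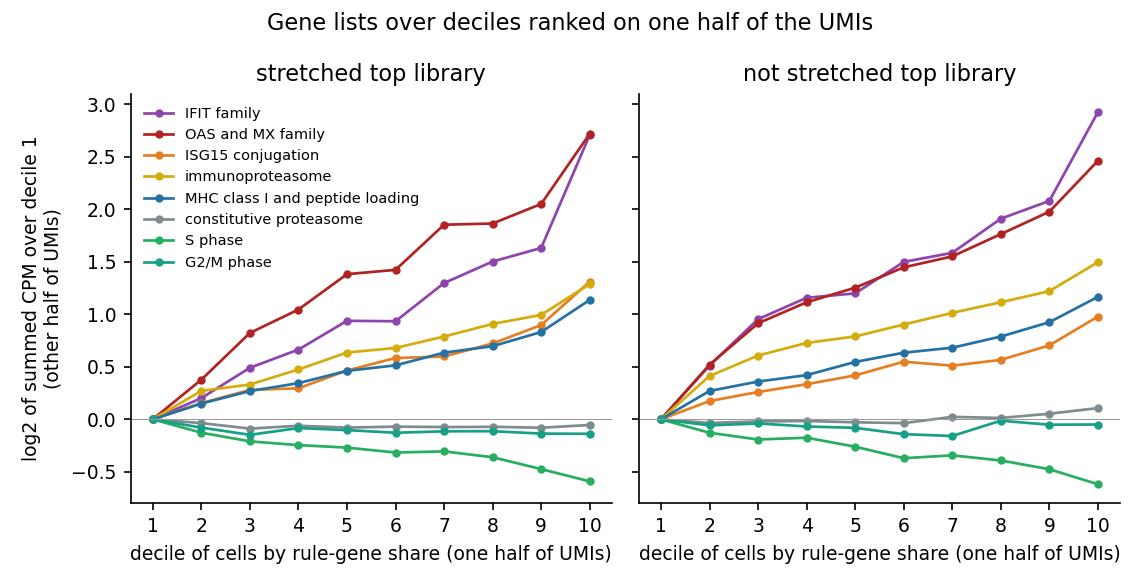
Summed CPM of 8 lists by decile of cells, as log2 over decile 1 (y), with cells ranked by rule-gene share on 1 part of their UMIs (x) and read out on the other, for the stretched and not stretched top libraries. The interferon and MHC class I lists climb, the constitutive proteasome and G2/M lists stay near 0, and S phase genes decline to 1658 CPM in the top decile under stretch and to 1764 CPM without it.

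Outside the interferon lists, the epithelial markers EPCAM and KRT19 were each within 1.5-fold between the groups. EPCAM, the epithelial adhesion protein, had 420 against 384 CPM in interferon-high and middle cells under stretch and 452 against 374 CPM without it, and KRT19, a simple-epithelium keratin, had 2065 against 1465 and 2330 against 1567 CPM. VIM, the mesenchymal filament, had 5.00 against 7.34 and 4.33 against 5.58 CPM.

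Some genes past 1.5-fold in both libraries belonged to no list and were picked out after their values were seen. CLIC3 had 107 against 50.6 CPM in interferon-high and middle cells under stretch and 117 against 51.5 CPM without it. KRTAP2-3 had 17.1 against 7.0 and 20.9 against 5.57 CPM, FXYD3, a regulator of the sodium pump, 65.7 against 33.1 and 65.0 against 33.1 CPM, and the tetraspanin TSPAN1 46.3 against 23.9 and 39.5 against 20.1 CPM. IGFBP6, which binds insulin-like growth factor 2, had 158 against 64.8 and 121 against 57.1 CPM. HES4, a transcriptional repressor of the Notch pathway that lies beside ISG15 on chromosome 1, had 643 against 392 and 759 against 443 CPM. LAMP3, a lysosomal protein known to be induced by interferon, had 11.8 against 4.81 and 15.4 against 6.45 CPM.

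Of 41 measured S phase genes, 4 were lower past 1.5-fold in the stretched and 6 in the not stretched library, 3 in both, where 0.642% and 2.21% of all genes were lower. All 41 lay below 0 in each library, the nearest at -0.06 and -0.02 log2, within the TMM shift given above. The list had medians of -0.41 log2 under stretch and -0.36 without it, against -0.08 and -0.14 over all genes. POLA1, the catalytic subunit of DNA polymerase alpha, had 28.9 against 48.0 CPM and 33.6 against 53.9 CPM. With TMM scaling its log2 ratio was -0.54 in the not stretched library, no longer past 1.5-fold. DTL, which targets replication factors for degradation, had 19.4 against 30.5 and 18.5 against 29.5 CPM. G2/M genes had medians of -0.10 and -0.03 log2, with 0 of 52 past 1.5-fold.

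Fewer interferon-high than middle cells were called in S phase at 5000 UMIs per cell. S phase was called in 11.3% (9.88 to 12.9%) of interferon-high and 20.4% (19.6 to 21.3%) of middle cells of the stretched library, and in 11.7% (10.1 to 13.4%) and 21.7% (20.7 to 22.6%) in the not stretched library. Without thinning the shares were 9.48% and 18.7%, and 11% and 20.4%. G1 was called in 57.5% and 46.2%, and in 58.8% and 50.1%. G2/M was called in 31.2% and 33.4%, and in 29.5% and 28.2%. Phase calls read free RNA as well, and its part was not tested. The calls used the same S phase and G2/M lists as the medians above, and so are not a separate observation. When the phases were given equal weight in both groups, the median of the S phase list was -0.06 log2 under stretch and -0.09 without it. Equal weight brings that list towards 0 by construction. POLA1 then stood at -0.46 and -0.44 and no longer passed 1.5-fold, while IFIT2 was at 2.69 and 2.23.

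The lowest ratios came with a rare cell state. AGR2, a secretory chaperone, had 1.53 against 8.92 CPM in interferon-high and middle cells under stretch and 1.70 against 6.62 CPM without it. SPINK1, a trypsin inhibitor, had 0.852 against 5.76 and 0.515 against 2.96 CPM, and APOE 8.24 against 23.6 and 7.78 against 16.3 CPM. Cells with at least 5 UMIs of APOA1, APOA2, FABP1, TTR and APOC3 in sum, genes typical of liver and absorptive gut, were 6 of 1719 interferon-high cells, 0.349%, against 125 of 8590 middle cells, 1.46%, under stretch. Without stretch they were 3 of 1487, 0.202%, against 62 of 7434, 0.834%. Without these cells APOE was at 0.46 and 0.42 log2 and AGR2 at -0.36 and 0.24. PDE3B, a phosphodiesterase of cyclic nucleotides, had 5.40 against 11.5 and 5.82 against 13.7 CPM and was still lower without these cells, at -0.90 and -1.02 log2. PARD3B, a cell polarity protein chosen after its values were seen, had 5.91 against 11.5 and 5.87 against 11.5 CPM, and stood at -0.68 and -0.75 without them.

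Markers of other cell types that a sort could hold were at low levels. Summed leukocyte markers had 5.97 against 5.17 CPM in interferon-high and middle cells under stretch and 9.94 against 5.51 CPM without it, with 0 of 10 past the level filter. Most of these sums was CD68, a lysosomal protein abundant in macrophages, which had 4.26 against 2.5 CPM under stretch and 8.65 against 3.94 CPM without it, and its part in the other results was not tested. PTPRC (CD45), which marks all leukocytes, had 0 UMIs in stretched and 2 in not stretched interferon-high cells. Summed fibroblast markers had 6.82 against 5.56 and 9.89 against 8.96 CPM, mostly COL1A1, and COL1A2 had 0 UMIs in interferon-high cells of both libraries. Summed endothelial markers had 127 against 107 and 167 against 131 CPM, of which EGFL7 alone, the 1 of 10 measured, made up 121 of the 127 and 160 of the 167 CPM. CDH5, which defines endothelial junctions, had 1 UMI in the interferon-high cells of each library. Heat shock, ribosomal protein and nuclear oxidative phosphorylation genes had 0 of 12, 0 of 28 and 0 of 27 members past 1.5-fold in either library. Over all genes, 0.856% were higher and 0.642% lower under stretch, and 0.793% and 2.21% without it. Counts of 0 in lists of this size are near these shares, and nothing is read from them.

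Between conditions, interferon-high cells of the stretched and the not stretched library were set side by side, each at its own threshold. Stretched interferon-high cells had 39 of 10457 genes past 1.5-fold on the higher side, 0.373%, and 102 on the lower side, 0.975%. TMM scaling gave 54 and 57, and median-of-ratios scaling 57 and 55. Of the rule genes, 1 of 5 was past 1.5-fold, BST2. Both groups were cut on the summed share of these genes, so the ratios depend on the thresholds and are a description. A shared threshold brings the summed shares close by construction. The log2 ratios of the rule genes, stretched over not stretched, were -0.17 for IFI6, -0.20 for IFI27, -0.28 for ISG15, -0.32 for IFIT1 and -1.04 for BST2. The median over all genes was -0.10. With TMM scaling they were -0.07, -0.11, -0.19, -0.22 and -0.95. With 1 shared threshold they were 0.06, 0.08, 0.03, 0.04 and -0.66, so that the sign of all but BST2 turned. In middle cells they were -0.46, -0.68, -0.50, -0.70 and -1.34, against a median of -0.16. BST2 was thus the rule gene farthest apart between the libraries in both groups of cells. IFIT2 had 38.6 CPM in stretched and 38.8 CPM in not stretched interferon-high cells, a fold of 0.995 (0.896 to 1.11).

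Other genes far apart between the conditions were so in middle cells too. RBM3, an RNA-binding protein induced by cold, had 80.5 CPM in stretched and 198 CPM in not stretched interferon-high cells, a log2 ratio of -1.29, against -1.23 in middle cells. DDIT4, a stress-induced inhibitor of mTORC1, had 51.1 and 124 CPM, at -1.26 against -1.17. HTR7, a serotonin receptor, had 8.92 and 23.2 CPM, at -1.29 against -1.06. On the higher side, CYP24A1, the enzyme that breaks down active vitamin D, had 17.0 and 5.41 CPM, at 1.49 against 0.73 in middle cells. MT-ND3, a mitochondrially encoded subunit of complex I, had 8048 and 4595 CPM, at 0.81 against 0.68, and RPS27L, a target of p53, 576 and 332 CPM, at 0.79 against 0.77.

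AFP, AHSG, APOA1, APOA2, FABP1 and TFF3 also ranked among the 8 highest or lowest, but the rare cells described above carried most of them. Without those cells the log2 ratio of AFP was 0.02, against -2.97 with them, that of AHSG 0.20 against -1.52, and that of APOA2 -0.50 against 2.03. TFF3 stood at -0.32 against 0.79, APOA1 at -0.19 against -1.40 and FABP1 at 0.39 against 0.87. No spread between chips is known for any of these values, and the condition and the library cannot be told apart.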

How the data were processed

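The values deposited are unnormalized UMI counts for each gene in each barcode, from Cell Ranger 7.0.0 per the file headers of all 3 libraries. The submitters' processing notes name hg38 as the build, and the annotation version is not given in the sources used here. All matrices list 19912 features, GFP not among them, and barcodes with at least 500 UMIs. Counts were summed over cells and given as CPM of all UMIs. Log2 ratios use 1 CPM added. Folds carry exact conditional binomial intervals and shares exact Clopper-Pearson intervals. They cover counting error only. No count model was run, since each condition is 1 library. Depth effects were checked by thinning each cell to 5000 UMIs. No cells were removed as doublets, and their part was not tested.

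The members and lists were chosen with earlier results of these data known. Named genes were the rule genes, EPCAM, VIM, the pathway lists in full, up to 4 genes with the largest mean ratio of each other list, the 10 highest and 10 lowest genes, and the 8 highest and 8 lowest between conditions. Genes outside this rule are marked where they appear. A few genes that the rule selects are not reported here. Promoters came from RefSeq on GRCh38.p14. The ratio computation was tested on simulated data. Alternatives covered the choice of cells, filters, scaling and thresholds. Phases were called with scanpy 1.11.5, and edgeR 4.0.16 (R 4.3.3) gave the TMM factors. Other steps ran in Python 3.11.15 with scipy 1.17.1, numpy 2.4.6, matplotlib 3.10.9 and pandas 2.3.3.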

Additional observations from a re-analysis of the deposited data

How the results depend on the processing

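Counts of genes past 1.5-fold moved with several settings, given as higher and lower. In the stretched library, 88 and 66 in the main values, they were 146 and 164 with the top 5% of cells, 49 and 20 with the top 20%, 133 and 110 with a level of at least 1 CPM, 51 and 18 with at least 20 CPM, and 29 and 13 with a 2-fold threshold. The lower count alone was 126 against all other cells, 103 with at most 10% mitochondrial UMIs, 42 without APOA1-type cells, 39 with TMM, 35 with median of ratios and 16 with 5 CPM added. In the not stretched library, 84 and 234, they were 132 and 851 with the top 5%, 48 and 31 with the top 20%, 149 and 58 with TMM, 173 and 52 with median of ratios, 50 and 125 with at least 20 CPM, and 28 and 7 with a 2-fold threshold. The lower count was 138 after thinning, 412 against all other cells and 63 with 5 CPM added, and the higher count 127 with at least 1 CPM. In both libraries, 52 and 29, they were 82 and 103 with the top 5%, 84 and 14 with median of ratios and 23 and 3 with a 2-fold threshold. The lower count was 5 with the top 20%, 84 against all other cells, 17 without APOA1-type cells, 14 with TMM, 6 with 5 CPM added and 13 with at least 20 CPM, and the higher count 80 with at least 1 CPM. Between conditions, 39 and 102, the lower count was 214 with the shared threshold, 57 with TMM and 55 with median of ratios. Stretched cells above the shared threshold were 4.94% after thinning. S phase shares without thinning were 9.48% of stretched interferon-high, 18.7% of stretched middle and 20.4% of not stretched middle cells. The cause of these shifts was not tested beyond what each setting does by construction.

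Single genes changed sign mainly without APOA1-type cells. In the stretched library APOA1 then stood at 0.042, APOE at 0.46, AFP at 0.072 and AHSG at 0.37 log2. In the not stretched library AGR2 stood at 0.24, FN1 at 0.11, APOE at 0.42, APOA2 at 0.21, SPINK1 at 0.0028, VTN at 0.18, RBP4 at 0.061 and AFP at -0.056. Between conditions APOA2 stood at -0.50, AFP at 0.020, AHSG at 0.20 and TFF3 at -0.32. In the not stretched library AFP was -1.93 and APOA4 -0.18 with the top 5%, AFP -2.14 and APOA4 -0.48 with at least 10000 UMIs, CITED1 -0.28 with at most 10% mitochondrial UMIs, and CCL5 -0.19 and CXCL10 -0.067 without cells with an interferon message. FABP1 between conditions was -0.87 with the shared threshold. Of the named genes past 1.5-fold, 52 of 95 in the stretched library, 49 of 93 in the not stretched library and 20 of 35 between conditions kept their side and direction under every alternative run. Leaving out shared barcodes, interferon-message cells or, between conditions, APOA1-type cells was chosen after seeing the data. No paired analysis was possible because each group is 1 library. Precision for scarce genes is limited by depth, with 3 counts worth 0.170 and 0.154 CPM in the interferon-high cells.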
